A study of Mus musculus with 12 samples.

Results

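The 10 genes described here encode the NF-kB transcription factor subunits (Rela, Rel, Relb, Nfkb1 and Nfkb2), their cytoplasmic inhibitors (Nfkbia, Nfkbib and Nfkbie), the nuclear inhibitor-like protein Bcl3 and the signalling brake Tnfaip3. They were taken by gene symbol from the deposited expression tables, and all 10 were found in both tables, out of 24015 genes. All 10 passed the filter on low reads. Gene expression was measured by RNA sequencing of cultured mouse primary B cells in 12 libraries, 3 in each of 4 groups. Wild-type (WT) and T58A cells came either from bone marrow, kept for 48 h in IL7 (a cytokine that B cell precursors depend on), or from spleen, kept for 48 h in lipopolysaccharide (LPS), a bacterial product that activates mature B cells. All cultures were in RPMI with 10% FBS. T58A is a point mutation of MYC at a residue whose phosphorylation leads to degradation of the protein, and the mice were littermates per the series design. The strain, age and dose of the mutant allele were not given in the sources used here, nor was the animal behind each library, so p-values measure the spread between these libraries, which may be technical in part.

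NF-kB proteins bind DNA as dimers. In resting cells the cytoplasmic inhibitors hold the dimers out of the nucleus. A kinase complex activated by receptors such as the LPS receptor or CD40 marks those inhibitors for destruction, and the freed dimers switch on immune, survival and proliferation genes. Rela, Rel and Relb carry the domain that activates transcription, while Nfkb1 and Nfkb2 make precursors that are cut to DNA-binding partners. Several of the genes, among them Nfkbia, Tnfaip3, Nfkb2, Relb and Bcl3, are themselves textbook targets of NF-kB, so that the system feeds back on itself. In B cells Rel is prominent in the response of mature cells to stimulation, and Nfkb2 with Relb forms the branch that supports their survival.

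The RefSeq promoter table (GRCm38.p6, windows of 300 bases around annotated starts) held 8 of the 10 genes. The kB consensus, the site that NF-kB dimers bind, was searched on both strands. It was found in 6 of these 8 genes (75%), against 9.55% of 27025 genes and 8.46% of 32851 windows. Its letters were not in the windows of Rela and Nfkbib. CACGTG, a sequence that MYC dimers can bind, was found in 1 of the 8 (12.5%), Tnfaip3, against 8.09% of all genes. The stretch just upstream of Nfkbia is shown because that gene had the smallest adjusted p in IL7 cultures and the highest level per length in WT cells of both cultures. It lies at chr12:55492648-55492797 on the minus strand, outside the annotated exons of the gene. Capitals mark the match to the kB consensus.
Nfkbia: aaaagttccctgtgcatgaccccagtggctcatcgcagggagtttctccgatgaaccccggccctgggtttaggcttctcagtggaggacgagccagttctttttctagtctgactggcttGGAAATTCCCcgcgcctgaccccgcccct
One match of each of the other 5 genes is shown in 30 bases, so that the sites can be compared. In Rel and Nfkb2 the capitals cover a pair of overlapping matches. The Nfkb2 stretch is at chr19:46304688-46304717 on the plus strand, and it overlaps an annotated exon. That of Nfkbie is at chr17:45555584-45555613 on the plus strand, and that of Rel at chr11:23771042-23771071 on the minus strand, both upstream of the gene model. The stretches of Tnfaip3, at chr10:19015403-19015432, and of Bcl3, at chr7:19822734-19822763, are on the minus strand and overlap annotated exons.
Nfkb2: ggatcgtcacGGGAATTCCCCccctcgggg
Nfkbie: gcagcaaacaGGGGGATTCCggaggggcgg
Rel: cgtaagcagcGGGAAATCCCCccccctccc
Tnfaip3: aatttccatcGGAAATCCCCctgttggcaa
Bcl3: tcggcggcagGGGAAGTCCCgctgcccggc
The matches describe the letters only, and binding was not measured in the tables used here.

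Depth was 8486753 to 10201113 gene-assigned reads in IL7 libraries and 5110746 to 9332410 in LPS libraries. A count of 0 allows up to 3 reads, or 2.15 to 4.12 normalised reads, a limit that covers counting error only. Values below are normalised reads, the deposited reads divided by 1 size factor per library, and levels between genes are compared only as RPKM, which scales reads by exon length and library depth. Some libraries stand apart. Xist, expressed in females, was high in WT 1 and WT 2 of both cultures (11281 to 23674 normalised reads) and at 26.9 or below in all other libraries, so sex moved with genotype except in pair 3. IL7 WT 2 also held reads of the Y-linked genes Ddx3y (42.6), Kdm5d (31.7), Uty (34.4) and Eif2s3y (58.9), which was not seen in the other libraries with high Xist, where these genes were at 1.86 or below. Of the T58A columns for LPS, 2 share a header and so carry no pair number, and below these are the first unnumbered and the second unnumbered T58A library.

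The first comparison asked how IL7 cultures of T58A marrow differ from those of WT marrow. With the numbered pair as a block, 6 of the 10 genes were lower in T58A cells, and none was higher. They were the inhibitors Nfkbia and Nfkbie, the nuclear regulator Bcl3, the brake Tnfaip3 and the subunit genes Nfkb2 and Relb. The decreases ran from 1.36-fold for Tnfaip3 to 2.20-fold for Bcl3. Rela, Rel, Nfkb1 and Nfkbib did not pass. The background was 6.31% of 11604 genes called lower and 6.41% called higher (limma, Benjamini-Hochberg adjusted p under 0.05). Over the 10 genes the median log2 difference was -0.48, against -0.01 over all genes tested. The calls need the block. Without it limma called 0 of the 10 and 0 of 11604 genes, while 6 of the 10 had an unadjusted p under 0.05, all lower, against 16.9% of all genes in either direction and 7.74% lower. With the block DESeq2 called the same number, 6, against 4.68% of genes lower and 4.4% higher. Without the block edgeR and limma-voom called 0 of the 10 and DESeq2 called 1, Bcl3.

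Among the inhibitors, Nfkbia encodes the one that is resynthesised fastest after activation and that ends a pulse of NF-kB activity. Its normalised reads in IL7 cultures were 1004, 572 and 451 in WT 1 to 3 and 477, 367 and 274 in T58A 1 to 3. Every T58A library lay below the WT library of its pair, but the ranges of the groups overlapped, since WT 3 was below T58A 1. The log2 difference was -0.81 ± 0.10 (SE), a 1.75-fold decrease (limma adjusted p = 0.00456 with the block and 0.247 without). Within pairs 1, 2 and 3 it was -1.07, -0.64 and -0.72.

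Nfkbie encodes a related inhibitor that holds dimers of Rel and Rela. It stood at 1170, 714 and 638 normalised reads in the WT libraries and at 677, 499 and 534 in T58A, again lower within every pair with overlapping ranges. The log2 difference was -0.52 ± 0.11 (SE) with a limma adjusted p of 0.0182 (0.290 without the block). Nfkbib, the remaining cytoplasmic inhibitor, did not follow. Its values were 454, 313 and 364 in WT and 370, 344 and 350 in T58A, higher in T58A in pair 2 and lower in the others. With a log2 difference of -0.07 ± 0.11 (SE) it did not pass (limma with the block, adjusted p = 0.700).

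Bcl3 encodes a nuclear member of the inhibitor family that binds dimers of the Nfkb1 and Nfkb2 products and can activate or repress their targets. It had the largest log2 difference of the 10. Normalised reads were 317, 141 and 118 in WT and 110, 67.2 and 65.6 in T58A, so that all T58A libraries lay below all WT libraries. The log2 difference was -1.14 ± 0.17 (SE), or 2.20-fold lower (limma adjusted p = 0.00709 with the block and 0.219 without). WT 1 was more than 100 normalised reads above every other library, and with pair 1 left out the call held.

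Tnfaip3 encodes A20, an enzyme that edits ubiquitin chains and shuts off signalling upstream of the kinase complex. Its normalised reads were 655, 525 and 654 in WT and 487, 410 and 452 in T58A, without overlap of the groups. The log2 difference was -0.44 ± 0.08 (SE), with a limma adjusted p of 0.0152 (0.188 without the block). Leaving out pair 3, the only pair of 1 sex, gave an adjusted p of 0.0699. Bcl3, Tnfaip3 and Rela were the 3 of the 10 genes whose T58A libraries all lay below all WT libraries, against 10.8% of all genes.

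The DNA-binding precursors split. Nfkb2 had 873, 626 and 511 normalised reads in WT and 574, 323 and 374 in T58A. It was lower in each pair, though WT 3 lay below T58A 1, and its log2 difference was -0.67 ± 0.11 (SE; limma adjusted p = 0.00917 with the block and 0.248 without). Nfkb1 had 2665, 2035 and 2110 in WT and 2043, 1785 and 1894 in T58A. It was also lower in each pair, by a smaller log2 difference of -0.24 ± 0.07 (SE) that just missed the threshold (limma adjusted p = 0.0558). With scaling by total reads Nfkb1 passed (limma adjusted p = 0.0408), which made 7 of 10. That scaling changed the split over all genes from 744 higher and 732 lower to 576 higher and 867 lower.

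The activating subunits also differed in what was measured. Relb, the partner of the Nfkb2 product, stood at 535, 199 and 285 normalised reads in WT and at 224, 135 and 165 in T58A, with WT 2 below T58A 1. Its log2 difference was -0.87 ± 0.14 (SE; limma adjusted p = 0.0101 with the block and 0.266 without). Rela, the main activating subunit of the canonical branch, had 1302, 957 and 979 in WT and 930, 923 and 871 in T58A. The groups did not overlap, yet Rela did not pass (log2 difference -0.24 ± 0.09, SE; limma adjusted p = 0.129). Rel had 303, 322 and 247 in WT and 316, 234 and 302 in T58A, with no common direction. It was lower in pair 2 alone, and its log2 difference was -0.04 ± 0.14 (SE; limma adjusted p = 0.888). In RPKM, Relb relative to Rela stood at 0.24 ± 0.08 for WT against 0.15 ± 0.04 for T58A (SD, n = 3), and that of Nfkbia to Nfkbib was 2.37 ± 0.66 and 1.41 ± 0.34, with overlapping ranges for both ratios.

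**Figure D1:**
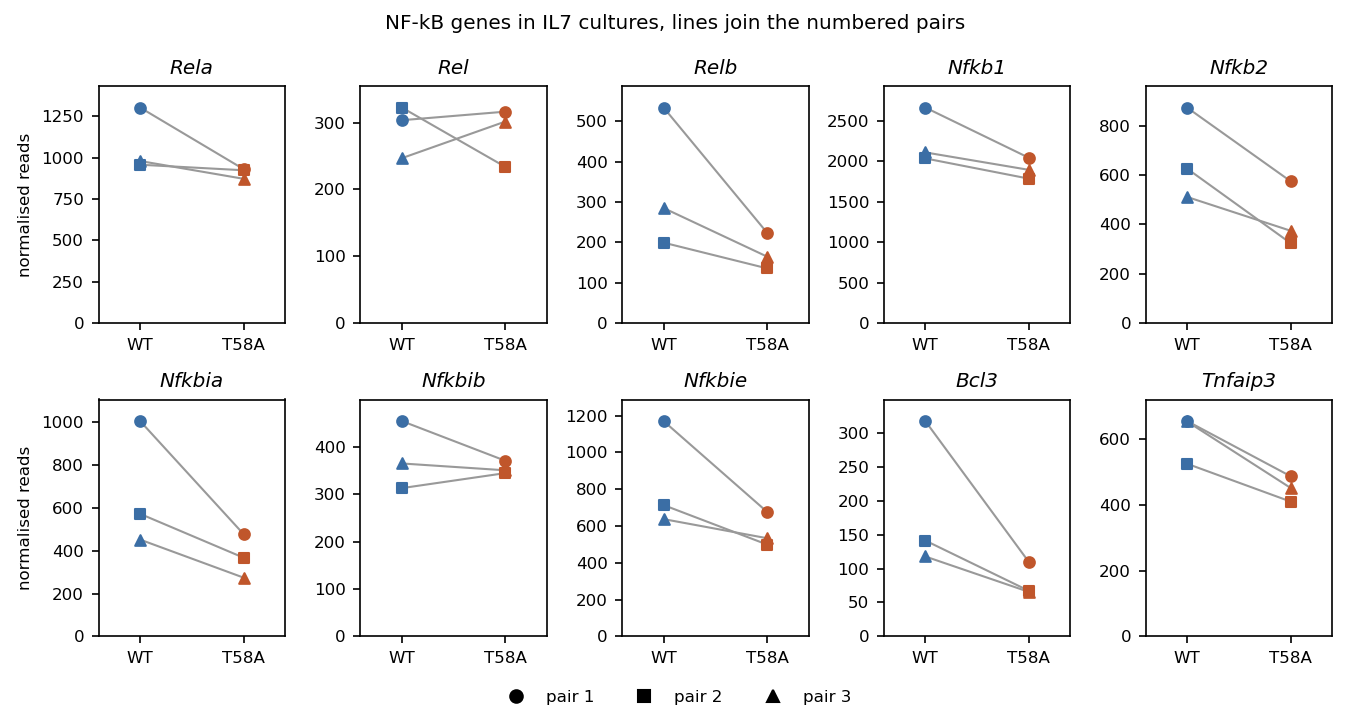
Normalised reads of the 10 genes in IL7 cultures, WT (blue) and T58A (orange), with lines joining pairs 1 to 3 and the vertical axes starting at 0. For 8 genes every line falls, Rel falls in pair 2 alone and Nfkbib falls in pairs 1 and 3.

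Pair by pair, 8 of the 10 genes were lower in T58A in all 3 pairs, against 26% of all genes. Rel was lower in 1 pair and Nfkbib in 2. Within each pair 9 of the 10 genes were lower, with median log2 differences of -0.54, -0.49 and -0.35 in pairs 1, 2 and 3. Pair 3, in which both libraries were male, had the smallest of these medians. Leaving out pair 1 or pair 2, limma with the block called 6 genes lower, and leaving out pair 3 it called 5. Over all genes, 1476 calls became 1425, 774 and 915 without pairs 1, 2 and 3. Pair 2 holds the library with reads of both sexes, and without it the 6 calls included every gene called with all pairs. In the authors' deposited table the same 6 genes had an adjusted p under 0.05 in IL7 cultures. There 4.97% of genes were called lower and 4.67% higher. Deposited log2 fold changes ran from -0.39 for Tnfaip3 to -0.80 for Bcl3. The DESeq2 fit that matched the authors' p-values shrinks fold changes, and without shrinkage these 2 genes were at -0.44 and -1.17. The deposited calls come from the same reads, so they are not a separate test.

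Markers of other cells moved in the same libraries. The 6 mature B cell markers, all in the table, summed to 34668, 18036 and 9265 normalised reads in IL7 WT 1 to 3 and to 16195, 8972 and 5046 in T58A, lower in T58A in each pair. With the block, limma called 6.31% of all genes lower and 6.41% higher. It called 4 of these 6 mature B markers lower, with a median log2 difference of -1.07, and none of the 6 was at 0 in either group. Cd74, with the most normalised reads of the 6 on average, ran from 5563 to 22038 in WT and from 2738 to 9212 in T58A. The myeloid markers (11 of 12 in the table, none at 0 in a whole group) summed to 1070, 627 and 1896 in WT and to 700, 908 and 449 in T58A. The myeloid sum was lower in T58A in pairs 1 and 3 and higher in pair 2. None of the 9 myeloid markers tested was called, and all 9 had a negative difference (median -0.89). With pair 2 left out, 4 of these 9 were called lower (median -1.41), as were 3 of the 6 mature B markers, against 429 of 11604 genes. T cell and natural killer markers summed to at most 43.6 and erythroid and stromal markers to at most 11.8 in an IL7 library. Dendritic markers ran from 55.1 to 164 in WT and from 21.5 to 68.2 in T58A, B lineage markers from 31503 to 50687 and from 26572 to 33401, and pro-B and pre-B markers from 16472 to 22247 and from 15357 to 18033. With the block, limma called 3 of 6 B lineage markers and 2 of 6 pro-B and pre-B markers lower, and of 4 plasmablast markers tested 1 lower and 1 higher. The part of any of these in the NF-kB values was not tested, and in bulk RNA fewer cells of a type and less RNA per cell cannot be told apart.

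**Figure D2:**
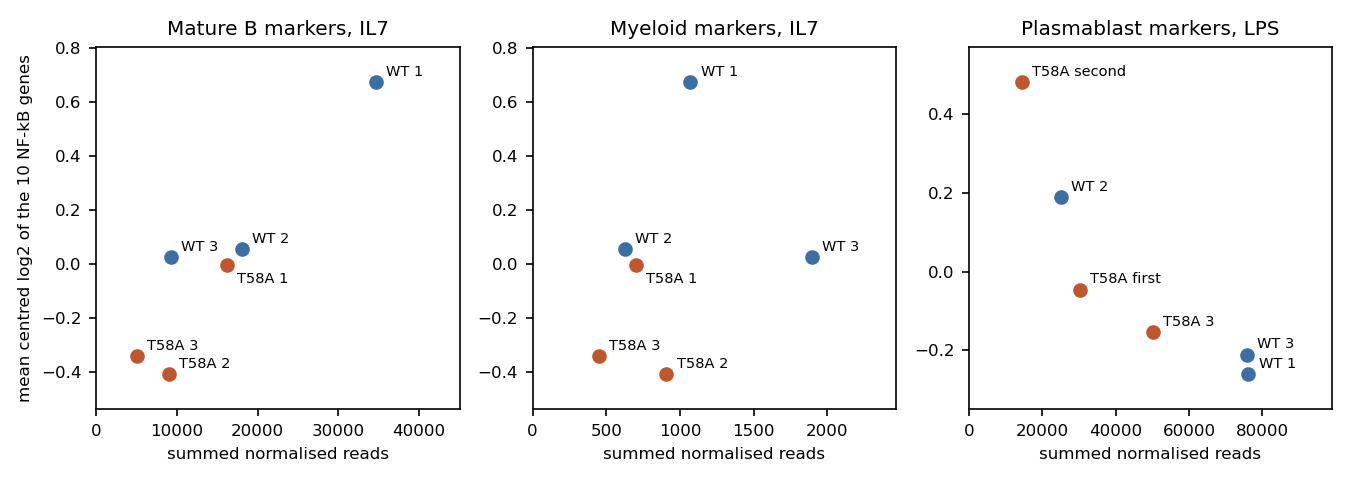
Each point is a library: the horizontal axis gives the summed normalised reads of a marker list and the vertical axis the mean over the 10 genes of log2 values centred on the 6 libraries of a table. In IL7 cultures WT 1 is highest in mature B markers and in the NF-kB genes, myeloid markers give another order, and in LPS cultures the second unnumbered T58A library and WT 2 are lowest in plasmablast markers and highest in the NF-kB genes.

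The rest of the pathway was read from lists chosen by function, each count set against the 6.31% and 6.41% of all genes in IL7 cultures. Of the other inhibitor-like proteins and repressors, 2 of 7 tested were lower. They were Nfkbid (log2 difference -0.62 ± 0.13, SE) and Nfkbiz (-0.55 ± 0.12), both atypical nuclear relatives of Bcl3. Of the kinases, adaptors and ubiquitin ligases 4 of 26 were lower, led by Birc3 (-0.67 ± 0.10) and Birc2 (-0.43 ± 0.08), ubiquitin ligases that control the kinase of the Nfkb2 branch. Among the brakes on signalling 2 of 12 were lower, Tnfaip8l2 (-0.57 ± 0.14) and Tax1bp1 (-0.24 ± 0.07), a partner of A20. Receptors and their adaptors had 5 of 22 lower, led by Ly86 (-1.14 ± 0.13), which pairs with a relative of the LPS receptor on B cells, and Tlr1 (-1.31 ± 0.21), a receptor for bacterial lipoproteins. No gene of these 4 lists was called higher.

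Of the target genes 9 of 23 were lower and 2 higher, with a median of -0.34. Ccr7, a chemokine receptor that guides lymphocytes, was at -0.89 ± 0.10 and Cd83, an activation marker, at -1.80 ± 0.22. The higher ones were Ccnd2, a cyclin, at 0.33 ± 0.08 and Sod2, a mitochondrial antioxidant enzyme, at 0.29 ± 0.07 (log2 difference ± SE). Without pair 2 the lower calls in these 5 lists, in the order given, were 1, 1, 0, 5 and 5, against 429 of 11604 genes. Without the block all of these counts were 0, as over all genes. The lists share their libraries and were chosen with earlier results known, so these counts are a description.

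The genes whose pattern was most like the mean of the 10 over the 6 IL7 libraries, among 8462 candidates with a mean of at least 100 normalised reads, were Cerk (Pearson r = 0.999), Acss1 (0.998), Inpp5k (0.996), Ier5 (0.996) and Mical1 (0.996). They follow a mean that was highest in WT 1 and lowest in T58A 2. Of the 10 genes themselves, Nfkbie, Bcl3 and Nfkb1 had r of 0.989, 0.989 and 0.983 with the mean of the other 9, and Rel had 0.363. All points share their libraries, and these values are a description.

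The second comparison asked the same of splenic B cells grown with LPS. None of the 10 genes passed, and none had T58A libraries all above or all below the WT libraries, against 3.1% and 3.3% of all genes. Differences were positive for 9 of the 10 genes, with a median log2 difference of 0.19 against 0.01 over all genes. Without the block limma called 0 of 11291 genes, and 284 (2.52%) had an unadjusted p under 0.05, none of the 10 among them. With the second unnumbered T58A library left out and all WT libraries kept, 5 of the 10 differences were positive and the median was -0.01. Within the pairs as placed below, all 10 were higher in T58A in pairs 1 and 2 (medians 0.18 and 0.31) and 6 of 10 in pair 3 (median 0.12).

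Nfkb2 had the largest LPS difference of the 10. Its normalised reads were 900, 2019 and 968 in WT 1 to 3 and 1320, 2861 and 1141 in the first unnumbered, the second unnumbered and the T58A 3 library. WT 2 exceeded the lower 2 T58A libraries, and the log2 difference was 0.43 ± 0.39 (SE; limma adjusted p = 1). When the first unnumbered library was paired with WT 1 and the second with WT 2, Nfkb2 was higher in T58A by 0.55, 0.50 and 0.24 within pairs 1, 2 and 3. With that placement as a block, DESeq2 gave Nfkb2 an adjusted p of 0.0145, against 0.735% of genes called higher and 1.28% lower. limma and edgeR called none of the 10, and limma called 0.0177% of genes in each direction. The authors' deposited table gives Nfkb2 a log2 fold change of 0.38, where the DESeq2 fit above, without shrinkage, gave 0.43. The deposited DESeq2 adjusted p was 0.0119, against 1.49% of genes called higher there. The placement comes from the authors' p-values, which a DESeq2 fit with these pairs matched within 1% for 99.7% of genes, and it is not in the labels.

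The other genes were closer between genotypes. Nfkbie had 1052, 1508 and 1064 in WT and 1408, 2028 and 1146 in T58A, a log2 difference of 0.32 ± 0.23 (SE). Bcl3 had 1034, 1374 and 955 in WT and 1321, 1673 and 1119 in T58A, a difference of 0.29 ± 0.20. Nfkb1 had 1801, 2381 and 2092 in WT and 2104, 3027 and 2448 in T58A, a difference of 0.27 ± 0.18. Relb (0.23 ± 0.22), Rel (0.15 ± 0.24) and Nfkbib (0.07 ± 0.19) differed less. In each of the 10 genes the second unnumbered T58A library was the highest of the 6. The share of all genes that were highest in that library was not counted, so this is a description.

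The inhibitor and the brake that are induced fastest were nearly level. Nfkbia had 2772, 3017 and 2736 in WT and 3052, 3251 and 2501 in T58A, a difference of 0.04 ± 0.16 (SE). Tnfaip3 had 1157, 1511 and 1135 in WT and 1205, 1603 and 1001 in T58A, a difference of -0.01 ± 0.20 that turned positive, to at most 0.15, with other scaling or with single libraries left out. Rela differed by 0.09 ± 0.17. Every limma adjusted p was 1, and with errors of this size the comparison does not show that the genotypes are alike. As placed, 6 of the 10 genes were higher in T58A in all 3 pairs, against 20.5% of all genes. They were Nfkb1, Nfkb2, Rela, Relb, Nfkbie and Bcl3.

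**Figure D3:**
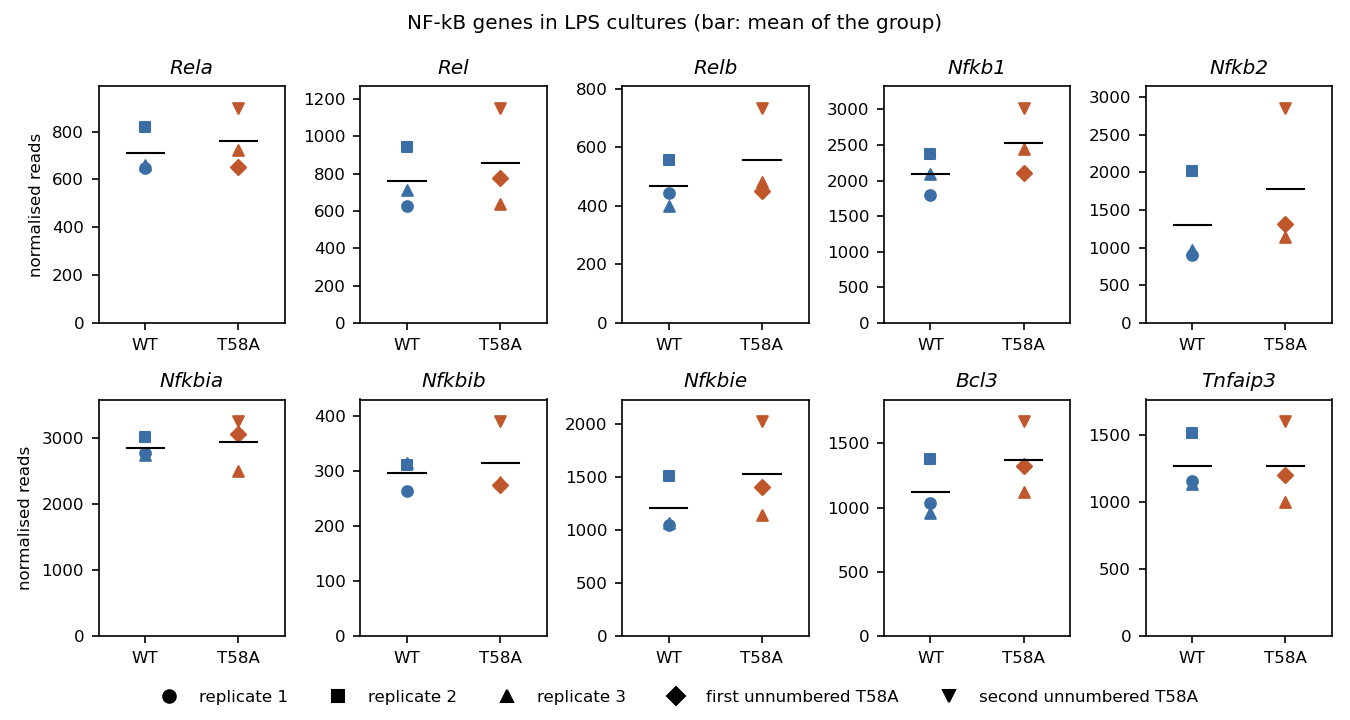
Normalised reads of the 10 genes in LPS cultures by library, with a bar at the group mean and the vertical axes starting at 0. The second unnumbered T58A library is the highest of the 6 for every gene shown, a share that was not counted over all genes. The WT and T58A ranges overlap in every panel.

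Plasmablast markers (5 of 6 in the table, none at 0) moved across these libraries the other way. Their sum was 76136, 25089 and 75760 normalised reads in WT 1 to 3 and 30192, 14360 and 50194 in the first unnumbered, the second unnumbered and the T58A 3 library. WT 2 and the second unnumbered T58A library, lowest in these markers, were highest in the mean of the NF-kB genes. Dendritic markers (1 of 6 at 0 in the T58A group) were also highest in these 2 libraries, with sums of 716, 1343 and 1073 in WT and 972, 1971 and 1103 in T58A, in the same order of libraries. Most of that sum was Flt3, at a mean of 978 in WT and 1281 in T58A. Zbtb46 (23.1 and 37.0) and Xcr1 (12.1 and 19.0) were also higher in T58A on average. Itgax (27.3 and 11.1), Siglech (3.25 and 0.89) and Clec9a (0.33 and 0) were lower. Of the 4 dendritic markers tested, 3 had a positive difference. Mature B markers ran from 71287 to 85104, myeloid markers from 536.9 to 912.1 and pro-B and pre-B markers from 14.7 to 58.8. No marker of these lists was called by limma without the block, and their part in the NF-kB values was not tested. The genes most like the mean of the 10 over the 6 LPS libraries, among 7979 candidates, were Cmip (Pearson r = 0.998), Ly75 (0.997), Tmem63b (0.997), Lonp1 (0.997) and Nr1h2 (0.996). None of the pathway lists had a gene called in LPS cultures by limma, with or without the block as placed.

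The difference between the T58A effects of the 2 cultures was then tested itself. For all 10 genes the IL7 effect was below the LPS effect, with a median of -0.67 on the log2 scale against -0.02 over 10767 genes. Without a block 5 of the 10 had an unadjusted p under 0.05, against 3.06% of genes in that direction and 4.45% in either, and 0 genes passed after adjustment by limma (adjusted p = 0.996 for each of the 10). These were Bcl3 (-1.43 ± 0.45, SE), Relb (-1.10 ± 0.44), Nfkbie (-0.84 ± 0.35), Nfkbia (-0.85 ± 0.36) and Nfkb1 (-0.51 ± 0.22). With pairs as a block, placed as above, limma called 6 of the 10, against 3.19% of genes called in that direction. Their adjusted p was 0.00376 for Bcl3, 0.00535 for Nfkb2, 0.0109 for Nfkbia, 0.0135 for Relb, 0.0151 for Nfkbie and 0.0230 for Nfkb1. Tnfaip3, called in IL7 cultures, was not among them (limma adjusted p = 0.0672), and Rela, Rel and Nfkbib did not pass either. With the unnumbered libraries exchanged, or with the block in IL7 alone, 0 of the 10 passed. So the test of the difference rests on a pairing that the labels do not give.

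**Figure D4:**
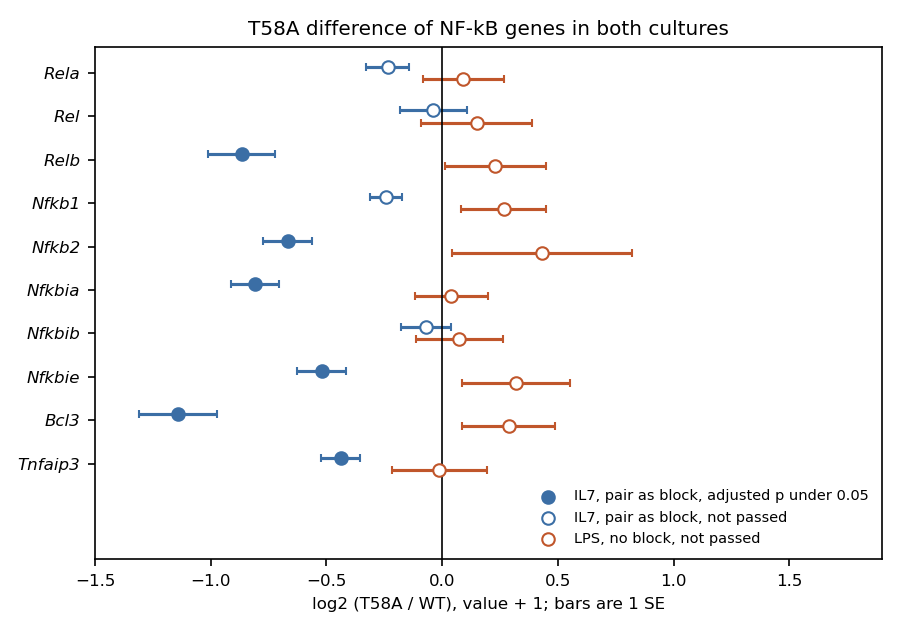
Log2 difference of T58A against WT on the scale of log2 (normalised reads + 1) for each gene, with bars of 1 standard error, in IL7 cultures (blue, pair as a block) and LPS cultures (orange, no block). The 6 filled points are genes with a limma adjusted p under 0.05, all below 0, and the orange points lie between -0.01 and 0.43.

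In the same fit as placed, 3.19% of all genes were called with a lower and 0.901% with a higher IL7 effect. Of the other pathway lists, 1 of 7 inhibitor-like proteins, 3 of 26 kinases, adaptors and ligases and 0 of 12 brakes had a lower IL7 effect. So did 4 of 20 receptors and adaptors and 5 of 22 target genes. Among the listed genes called were Ccr7 (-1.79 ± 0.16, SE) and Cd83 (-2.06 ± 0.27) of the target genes and Traf1 (-2.48 ± 0.47), an adaptor that NF-kB induces. Traf1 had at most 9.68 normalised reads in IL7 T58A libraries, the lowest of them below 3 reads. In IL7 WT libraries Traf1 ran unevenly from 16.5 to 105, so the size of its difference is uncertain. Ccr7 in LPS cultures had a T58A difference of 0.90 ± 0.12 with the block, which did not pass (limma adjusted p = 0.0550).

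Last, levels were compared between the WT cells of the cultures, which differ in tissue and stimulus and were deposited in separate tables, so these cannot be told apart. On log2 CPM (reads scaled to library depth, all 12 libraries in 1 limma fit), 8 of the 10 genes were higher in LPS cultures, against 27.5% of 12184 genes called higher and 30.8% called lower. Bcl3 was 9.28-fold higher (log2 difference 3.21 ± 0.32, SE), with 20.0 ± 11.5 CPM in IL7 WT and 171 ± 36.1 in LPS WT (SD, n = 3). Nfkbia was 6.53-fold higher (2.71 ± 0.25), with 70.3 ± 30.7 and 433 ± 29.4 CPM. Rel followed at 3.80-fold (1.92 ± 0.22) and Tnfaip3 at 3.03-fold (1.60 ± 0.18). Nfkb2 (1.44 ± 0.37), Relb (1.12 ± 0.32) and Nfkbie (1.11 ± 0.25) came next.

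Nfkb1 was 1.35-fold higher (0.44 ± 0.17; limma adjusted p = 0.0376). That call was lost with total-read scaling (0.0969) and without IL7 WT 2 (0.128), IL7 WT 3 (0.115), LPS WT 2 (0.139) or LPS WT 3 (0.0789). Total-read scaling moved the median of all genes by -0.10. Nfkbib (0.22 ± 0.18; limma adjusted p = 0.303) and Rela (-0.04 ± 0.16; 0.833) did not pass, with Rela at 112 ± 20.7 CPM in IL7 WT and 108 ± 16.2 in LPS WT. Ordered by group mean, every gene but Rela ran LPS T58A, LPS WT, IL7 WT, IL7 T58A. For Rela the mean of IL7 WT lay between those of LPS T58A and LPS WT. In Nfkb2, Rel, Relb, Nfkbia, Nfkbie, Tnfaip3 and Bcl3 the LPS and IL7 ranges were apart. For Tnfaip3 and Bcl3 the IL7 groups were apart as well. The share of all genes with such an order or gap was not counted, so this is a description. The ranges of neighbouring groups overlapped throughout for Nfkb1, Nfkbib and Rela.

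Per kilobase of exon the order of the genes differed between the cultures. The length used was that of all annotated exons together, 12061 bases for Nfkb1 and 1610 for Nfkbia. It can exceed the length of the RNA made. By CPM Nfkb1 was highest in IL7 WT (236, against 70.3 for Nfkbia), so the order of the genes depends on the length used. In IL7 WT cells Nfkbia (43.6 ± 19.0 RPKM) and Rela (36.5 ± 6.74) were highest and did not differ beyond their spread, followed by Nfkbie (28.7 ± 10.0), Nfkb1 (19.5 ± 3.06), Nfkbib (18.0 ± 3.49) and Nfkb2 (15.2 ± 4.30). Relb, Tnfaip3 and Bcl3 lay together at 9.09 ± 4.71, 8.78 ± 1.06 and 8.08 ± 4.63, and Rel was lowest at 4.05 ± 0.57 (SD, n = 3). In IL7 T58A cells Rela came first by mean (30.9 ± 1.11) and Bcl3 last (3.41 ± 1.05). Their ranges overlapped those of Nfkbia (24.2 ± 6.58) and Rel (3.97 ± 0.61), in that order. In LPS WT cells Nfkbia reached 269 ± 18.3 RPKM, Bcl3 69.2 ± 14.6, Nfkbie 60.6 ± 13.9 and Nfkb2 43.3 ± 21.6. Rela stood at 35.3 ± 5.26. Rel again had the lowest mean at 15.6 ± 3.65, with a range that overlapped that of Relb (18.3 ± 3.38). Rel relative to Rela was 0.11 ± 0.02 in IL7 WT and 0.44 ± 0.04 in LPS WT, and Nfkbia relative to Nfkbib was 2.37 ± 0.66 and 13.0 ± 1.24. Each of these pairs of ranges was apart.

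**Figure D5:**
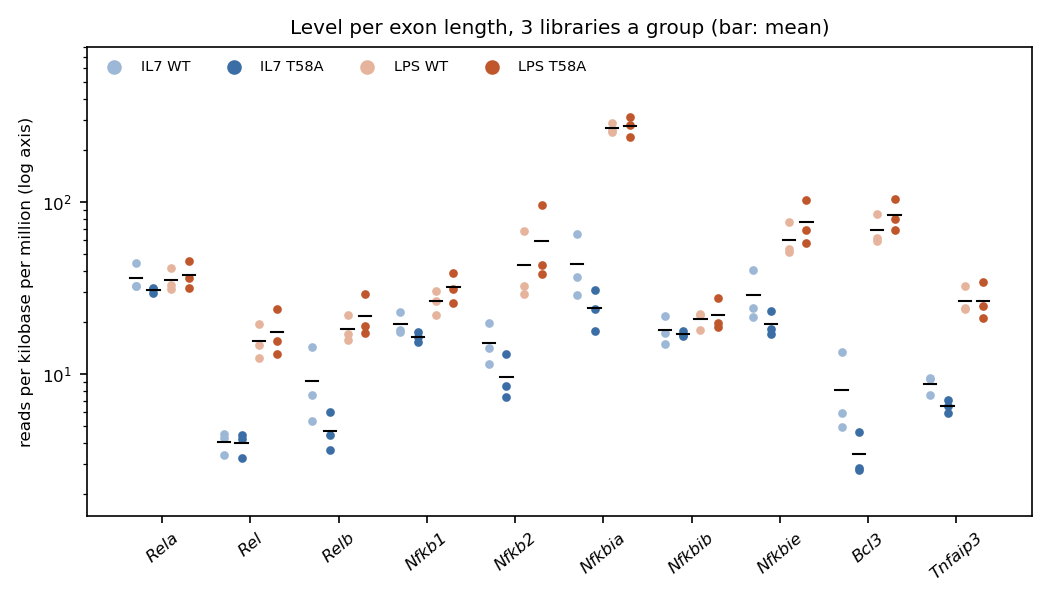
RPKM of each gene in the 3 libraries of each group on a log axis, with a bar at the mean. For Rela, Nfkb1 and Nfkbib the 4 groups lie close together, while Nfkbia and Bcl3 lie far higher in the LPS groups, at means of 269 and 69.2 in LPS WT against 43.6 and 8.08 in IL7 WT.

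The rest of the pathway was compared between the WT cells in the same way, against the 27.5% of all genes called higher and 30.8% called lower. Of the brakes on signalling 12 of 13 were higher in LPS cultures and none lower, led by Cyld (log2 difference 1.20 ± 0.11, SE), an enzyme that removes ubiquitin chains, and Irak3 (1.53 ± 0.19), which blocks the kinase relay below Toll-like receptors. Receptors and adaptors had 17 of 22 higher and 2 lower. Among them were Tlr7 (5.45 ± 0.29), a receptor for RNA, and Tnfrsf11a (-5.09 ± 0.59), the receptor RANK. In LPS WT Tnfrsf11a had 0 to 2.59 normalised reads, no more than 3 reads, so the size of its difference is uncertain. Target genes had 22 of 28 higher and 3 lower, with Fas (3.41 ± 0.21) and Plek (4.36 ± 0.30) higher and Lta (-3.52 ± 0.30) and Tnf (-1.21 ± 0.26) lower. Kinases, adaptors and ligases had 11 of 26 higher and 3 lower. Of the other inhibitor-like proteins 2 of 7 were higher, Nfkbiz (2.28 ± 0.25) and Nfkbid (1.07 ± 0.42), and 3 lower, with Nkrf at -0.83 ± 0.17, so the share higher was near that of all genes. In the same fit the 6 pro-B and pre-B markers were all lower in LPS WT (median -9.59) and the 6 mature B markers all higher (median 3.01). Vpreb1, Igll1, Dntt, Rag1 and Rag2 had means of 0.288 to 2.45 normalised reads in LPS WT, so the size of the pro-B and pre-B median is uncertain.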

How the data were processed

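Per the labels, RNA of the cultures was made into TruSeq v2 libraries. Per the submitters' processing notes, the tools were bcl2fastq 1.8.4, TopHat2 2.1.0, HTSeq 0.6.1 and DESeq2 (version not stated), and the build was mm10. For every gene in every library the authors deposited a signal. Its values are reads over 1 size factor per library, from which whole reads were recovered throughout (tolerance 0.001). They also deposited log2 fold changes and p-values. The members and lists were chosen with earlier results of these data known. The named genes were all 10 members, up to 2 genes per list and direction with the smallest p, and the 5 genes most like the members' mean.

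Genes were filtered with filterByExpr of edgeR 4.0.16 (minimum count 10, total 15) and tested with limma 3.58.1 (limma-trend, R 4.3.3) on log2 of the value plus 1, which understates folds of low genes. The block was used in IL7 because the sample titles number WT and T58A samples as pairs and the series speaks of littermates. Earlier results of these data had also given the authors' p-values as those of a paired DESeq2 fit. Here they matched such a fit within 1% for 94% of genes (15.8% without pairs). Same-numbered libraries deviated together (r of 0.41, 0.15 and 0.40). In LPS r was 0.54 for pair 3, and 0.34 and 0.66 for the unnumbered libraries as placed. WT cultures were compared on log2 CPM (TMM, prior count 1). Alternatives were edgeR, DESeq2 1.42.0, limma-voom, other scalings, filters and pseudocounts, blocks, and left-out libraries. DESeq2, edgeR and voom without the IL7 block, their blocked LPS fits and the block in IL7 alone were added after seeing the data. The code was tested on simulated data. Locations and exon lengths are from GENCODE M21 (GRCm38), which may not be the authors' annotation. The exon length of a gene counts every base covered by any of its annotated exons. Promoter sequences are from RefSeq.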

Additional observations from a re-analysis of the deposited data

Results flagged for a closer look

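The T58A effect differed between IL7 and LPS cultures for 6 genes in the limma fit with pairs as a block and the unnumbered LPS libraries placed by the authors' p-values. Over all genes that fit called 3.19% with a lower and 0.901% with a higher IL7 effect. The IL7 effect minus the LPS effect, on the log2 scale, was -1.43 for Bcl3, -1.10 for Nfkb2, -0.85 for Nfkbia, -1.10 for Relb, -0.84 for Nfkbie and -0.51 for Nfkb1. All 6 estimates were negative in IL7 cultures. In LPS cultures no effect passed in limma, and that of Nfkbia was 0.04 ± 0.16 (SE). Without a block, with the placement exchanged, or with the block in IL7 alone, 0 of the 6 passed after adjustment. Sex, mature B markers in IL7 and plasmablast markers in LPS moved with the same libraries, and their part was not tested.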

How the results depend on the processing

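In IL7 cultures the count of 6 genes lower became 0 with no replicate block in limma, edgeR and limma-voom, 1 in DESeq2 without it, and 2 (Bcl3 and Nfkbia) with all 12 libraries in 1 fit. The genes called over the whole table then numbered 0, 0, 0, 310 and 77. Leaving out a pair gave 5 to 6 of the 10 and 774 to 1425 genes overall. In LPS cultures DESeq2 called 1 gene without a block and 228 with the replicate block as placed, 1 of them among the 10, edgeR 39 and limma 4. With the placement exchanged DESeq2 called 1, and leaving out a library gave 0 to 4. The difference of effects gave 6 of the 10 and 441 genes with the replicate block as placed, and 0 to 1 genes with a library left out. The block as placed changed no other call.

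Directions turned for genes that did not pass. Leaving out a pair in IL7 cultures gave -0.20 to 0.17 for Rel and -0.18 to 0.040 for Nfkbib. Leaving out a library in LPS cultures gave -0.089 to 0.34 for Rel, -0.039 to 0.20 for Rela, -0.039 to 0.15 for Nfkbia, -0.091 to 0.16 for Nfkbib and -0.19 to 0.15 for Tnfaip3, which was at 0.0048 with total-read scaling, 0.0020 in edgeR and 0.0028 in DESeq2. The lowest values of Rel, Rela, Nfkbia and Nfkbib came without the second unnumbered library. The difference of effects ran from -0.38 to 0.050 for Rel and from -0.27 to 0.020 for Nfkbib, and Rela between WT cultures from -0.16 to 0.10. The cause of these changes was not tested. In IL7 cultures 146 of 190 values for single genes under an alternative stayed as they were, while 28 lost their call, 1 gained one, 2 turned and 13 single-pair values moved by more than the spread between pairs. In LPS cultures 198 of 210 stayed, for the difference of effects 162 of 170 and between WT cultures 93 of 100. The lowest value of the 10 genes was 65.6 normalised reads, against at most 4.12 for 3 reads.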
